A study of Mus musculus with 6 samples.

Results

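Myl7, Myl4, Sln, Bmp10 and Dkk3, a panel of atrial myocyte marker genes, were read in 6 RNA sequencing libraries of mouse heart. They were taken by gene name from the authors' deposited table of regularised log2 values (rlog), and each of the 5 names matched 1 row of 54352. An rlog value is a log2 expression level from which DESeq2 has removed library size and in which differences of low or noisy genes have been drawn together, so a difference in rlog can stand for a larger ratio of reads. The libraries form 3 groups of 2. T2D dnMCUb hearts came from C57BL/6 mice that from the age of 12 weeks ate a diet with fat as 60% of its calories, received 75 mg/kg of streptozotocin, which is toxic to pancreatic beta cells, and were later given an adeno-associated virus that encodes a dominant negative, FLAG-tagged MCUb. MCUb is a pore-lining subunit that restrains the mitochondrial calcium uniporter. T2D empty vector hearts had the same diet and streptozotocin and an empty virus. Control hearts came from mice kept on regular chow with no transgene. They differ from both other groups at least in diet, streptozotocin and virus together. No age or time of study is listed for the control mice. The diabetic mice were injected with virus by the jugular vein at 16 to 18 weeks from streptozotocin and studied 4 weeks later, which the labels place at 5 to 6 months from induction. Type 2 diabetes (T2D) was ascertained at week 20 of the diet. The labels give the tissue as heart and do not name the chambers, the promoter of the virus, the sex, or whether a group's 2 libraries are from different animals. P-values therefore measure only the spread between these libraries, which may be technical.

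Atrial and ventricular myocytes of the adult mouse build their contractile apparatus from different gene copies. Atrial cells use the regulatory myosin light chain encoded by Myl7 and the essential light chain encoded by Myl4, where ventricular cells use those of Myl2 and Myl3. Atrial cells also make sarcolipin (Sln), a small membrane peptide that slows the sarcoplasmic reticulum calcium pump, and BMP10, a secreted ligand made chiefly in the right atrium that signals through the receptor ALK1 on endothelium. Dkk3 encodes a secreted glycoprotein of the Dickkopf family that is also made by stromal and smooth muscle cells. In RNA from heart tissue these transcripts can move with how much atrial tissue a sample holds. Expression in other cells can move them too, as for Dkk3, and these sources were not separated here. In such bulk samples fewer cells of a type and less RNA per cell cannot be told apart.

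Myl2, the defining gene of ventricular myocytes, had rlog values of 16.96 to 17.36 in the 6 libraries. T2D dnMCUb 1 stood apart from the rest on the first principal component of the genes tested, which held 46.7% of the variance: it scored 10.8, against -4.42 to 2.69 in the other 5 libraries. Mcub, the gene carried by the virus, had 5.62 and 5.47 rlog in the T2D dnMCUb libraries, 5.48 and 5.46 in the T2D empty vector libraries, and 5.42 and 5.47 in the control libraries. T2D dnMCUb 2 therefore showed no more Mcub than a control library did, the table does not say whether a virus transcript would be counted there, and every direction given for T2D dnMCUb rests on the label.

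Both atrial myosin light chain genes lie on the same chromosome, far apart and on opposite strands. Myl7 (ENSMUSG00000020469.8) is on the minus strand at chr11:5896637-5898782 of GRCm38 and has 7 exons in GENCODE M21. Myl4 (ENSMUSG00000061086.12) is on the plus strand at chr11:104550663-104587215 and has 9 exons. Because their values followed each other closely, the 250 bases before each start are shown, read 5′ to 3′ on the gene's own strand from the RefSeq table of GRCm38.p6, chr11:5898783-5899032 on the minus strand for Myl7 and chr11:104550413-104550662 on the plus strand for Myl4. Capitals mark matches to the GATA factor motif TGATAA, the CArG box of serum response factor, and the NK2 factor motif AAGTG, which reads CACTT on the other strand.

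Myl7: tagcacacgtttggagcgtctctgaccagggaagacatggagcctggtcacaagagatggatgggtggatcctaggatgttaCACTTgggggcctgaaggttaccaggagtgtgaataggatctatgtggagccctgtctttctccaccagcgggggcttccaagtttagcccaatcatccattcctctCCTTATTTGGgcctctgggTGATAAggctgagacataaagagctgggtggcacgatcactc

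Myl4: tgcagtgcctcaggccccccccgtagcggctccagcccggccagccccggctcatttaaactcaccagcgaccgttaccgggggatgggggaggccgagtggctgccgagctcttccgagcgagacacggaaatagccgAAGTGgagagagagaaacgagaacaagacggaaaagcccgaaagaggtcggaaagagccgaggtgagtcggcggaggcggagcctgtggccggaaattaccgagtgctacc

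The Myl7 window held TGATAA, which 7.94% of the 32851 promoters of this length in the table hold on either strand. It also held a CArG box, which 1.47% of those promoters hold, and that box overlaps a match to a looser form with any bases between its outer pairs, which is not marked elsewhere and is held by 67.1%. AAGTG was in both windows, as in 40.7% of promoters. The Myl4 window held neither TGATAA nor the CArG box, and AGATAA, the T-box motif GGTGTGA, the MEF2 motif and TATAAA were in neither window, against shares of 9.99%, 3.33%, 3.2% and 12.4% of all promoters. The CArG box was added to the search after the sequences had been seen. These are matches of letters, and no binding was measured in these libraries. Of the 5 genes, Bmp10 also had a promoter in the table, and its window held AGATAA at 2 places.

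Myl7, the regulatory light chain of atrial myosin, was high in 1 library of the T2D dnMCUb group and in 1 control library. It had 10.22 and 7.40 rlog in T2D dnMCUb libraries 1 and 2, 7.46 and 7.94 in T2D empty vector libraries 1 and 2, and 9.45 and 7.32 in control libraries 1 and 2. T2D dnMCUb 1 and control 1 therefore stood above the other 4 libraries, which lay within 0.62 of each other, and the 3 groups overlapped. Myl4, the essential light chain of atrial myosin, had 10.30 and 7.56 rlog in T2D dnMCUb hearts, 7.65 and 8.15 in T2D empty vector hearts, and 9.47 and 7.53 in control hearts. The order of the 6 libraries was the same as for Myl7 (T2D dnMCUb 1, control 1, T2D empty vector 2, T2D empty vector 1, T2D dnMCUb 2, control 2), and after each gene was centred the root mean square difference between the 2 genes over the libraries was 0.069.

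Sln (ENSMUSG00000042045.6, plus strand, chr9:53850164-53854560 of GRCm38, 2 exons), which encodes the atrial inhibitor of the calcium pump, kept that library order at a lower rlog. Its values were 7.55 and 6.11 in T2D dnMCUb hearts, 6.12 and 6.22 in T2D empty vector hearts, and 6.98 and 6.07 in control hearts. Again T2D dnMCUb 1 was highest and control 1 next, and the other 4 libraries spanned 0.15. When each gene was put on a scale with its lowest library at 0 and its highest at 1, control 1 sat at 0.73 for Myl7, 0.70 for Myl4 and 0.61 for Sln, and the next library, T2D empty vector 2, at 0.21, 0.22 and 0.098.

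Dkk3 (ENSMUSG00000030772.6, minus strand, chr7:112116017-112159057, 8 exons) was high in a further library. Its rlog was 10.18 and 7.81 in T2D dnMCUb hearts, 7.77 and 9.24 in T2D empty vector hearts, and 8.77 and 7.77 in control hearts. T2D dnMCUb 1 was highest as for the contractile genes, but T2D empty vector 2 came second, at 0.61 of the way between the lowest and the highest library, and control 1 followed at 0.42. The remaining 3 libraries lay between 7.77 and 7.81.

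Bmp10 (ENSMUSG00000030046.6, plus strand, chr6:87428994-87437677, 2 exons), the atrial ligand, was close to flat. It had 2.460 and 2.440 rlog in T2D dnMCUb hearts, 2.452 and 2.485 in T2D empty vector hearts, and 2.433 and 2.437 in control hearts, a span of 0.052 over all libraries. Its highest library was T2D empty vector 2 and its lowest control 1, which was second highest for Myl7, Myl4 and Sln. Its mean of 2.45 rlog is under the minimum of 5 used for the tests across genes, and at that level the rlog transform leaves little of any difference, so its values say little about how much atrial tissue a library holds. The other 4 genes passed that minimum.

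**Figure D1:**
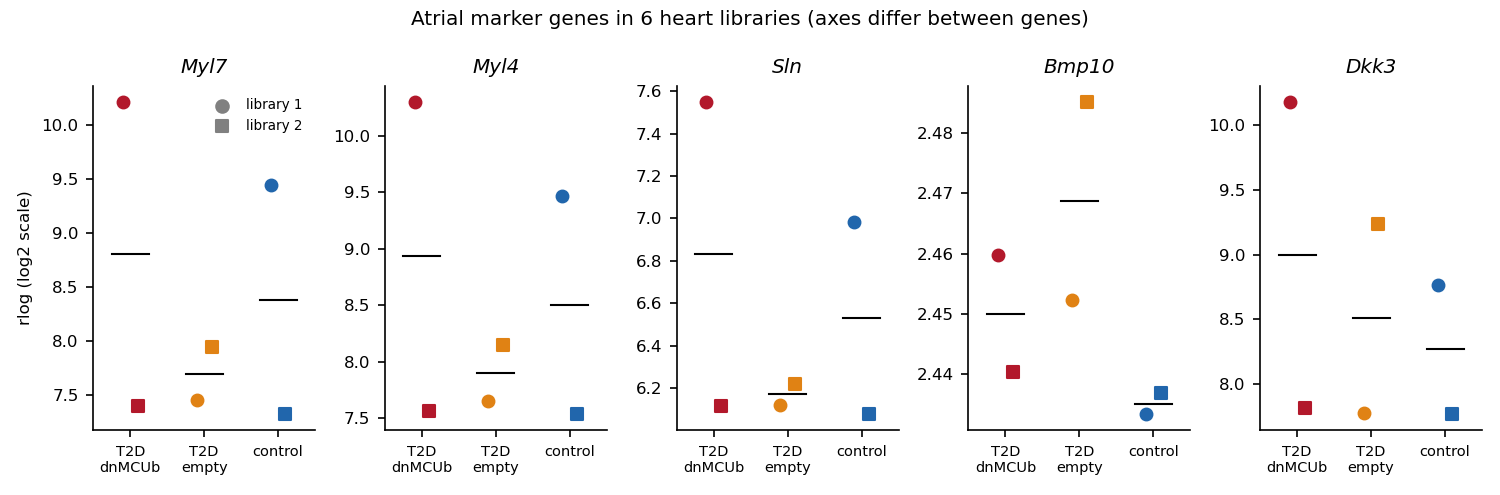
Regularised log2 values (rlog, vertical axes, a separate range in each panel) of Myl7, Myl4, Sln, Bmp10 and Dkk3 in each library, with groups from left to right T2D dnMCUb, T2D empty vector and control. Points are libraries and bars are group means of 2; T2D dnMCUb 1 and control 1 stand above the rest for Myl7, Myl4 and Sln, while the whole Bmp10 panel covers 0.052.

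Spread within groups was the main feature of these genes. The 2 libraries of a group differed in Myl7 by 2.81 in T2D dnMCUb hearts, 0.48 in T2D empty vector hearts and 2.12 in control hearts. For Myl4 these gaps were 2.74, 0.50 and 1.94 in the same order, for Sln 1.44, 0.10 and 0.91, and for Dkk3 2.37, 1.47 and 1.002. Among the 13094 genes tested, Myl7, Myl4 and Dkk3 had the 3 largest standard deviations within groups (1.45, 1.39 and 1.21, pooled over the 3 groups), and Sln ranked 8 (0.70). The order of libraries that Myl7, Myl4 and Sln shared at its top, T2D dnMCUb 1 and then control 1, was found in 2.34% of all genes tested, and that of Dkk3, T2D dnMCUb 1 and then T2D empty vector 2, in 8.92%.

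The comparison of diabetic hearts with control hearts was made with limma, a linear model with a spread shared between genes, fitted on all 6 libraries and with p-values adjusted by Benjamini-Hochberg over all genes tested. None of the 4 genes tested passed an adjusted p of 0.05 in any of the 3 comparisons. Over all genes limma called 0 of 13094 (0%) in T2D empty vector against control, 0 (0%) in T2D dnMCUb against T2D empty vector and 9 (0.0687%) in T2D dnMCUb against control. At an unadjusted p under 0.05 there were 803, 739 and 1497 genes in the same order, and none of the 4 markers was among them in any comparison.

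In T2D empty vector against control, Myl7 averaged 7.70 ± 0.34 rlog in T2D empty vector hearts and 8.38 ± 1.501 in control hearts (SD, n = 2 each), a difference of -0.68 with a standard error of 0.91 (limma adjusted p = 0.910). Myl4 averaged 7.90 ± 0.36 and 8.50 ± 1.37, a difference of -0.60 (SE 0.87, limma adjusted p = 0.916). These differences were smaller than the gap between the 2 control libraries. Sln differed by -0.36 (SE 0.44, limma adjusted p = 0.904), and Dkk3 by 0.24 (SE 0.76, limma adjusted p = 0.960), opposite in sign to Myl7, Myl4 and Sln. Bmp10, taken from a fit with no minimum, differed by 0.034 (SE 0.014, limma adjusted p = 0.866).

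In T2D dnMCUb against T2D empty vector, the question is what the dominant negative subunit does in a diabetic heart. Myl7 averaged 8.81 ± 1.99 rlog in T2D dnMCUb hearts and 7.70 ± 0.34 in T2D empty vector hearts (SD, n = 2 each), a difference of 1.11 with a limma adjusted p of 0.916. Myl4 differed by 1.03 (limma adjusted p = 0.916), Sln by 0.66 (0.888), Dkk3 by 0.49 (0.944) and Bmp10 by -0.019 (0.794 with no minimum). The 4 positive values all rested on T2D dnMCUb 1. T2D dnMCUb 2 was the lower library of its group for each of them, and for Myl7, Myl4 and Sln it was below both T2D empty vector libraries.

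In T2D dnMCUb against control, 1 high library stood on each side and the differences were small against the spread. Myl7 differed by 0.42 (limma adjusted p = 0.872), Myl4 by 0.43 (0.863), Sln by 0.30 (0.802), Dkk3 by 0.73 (0.716) and Bmp10 by 0.015 (0.728 with no minimum). The higher library of each group differed by 0.77 for Myl7, 0.83 for Myl4 and 0.57 for Sln (T2D dnMCUb 1 minus control 1). Groups that did not overlap were found for Bmp10 alone, in T2D empty vector against control and in T2D dnMCUb against control. Of all genes tested, 42.4% and 42.9% had groups that did not overlap in those comparisons, and 32.2% in T2D dnMCUb against T2D empty vector.

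The sign of these differences hung on single libraries. Without control 1, the T2D empty vector minus control difference of Myl7 was 0.38, against -0.68 with all libraries, and without control 2 it was -1.74. Without T2D dnMCUb 1, the T2D dnMCUb minus T2D empty vector difference of Myl7 was -0.30, and without T2D dnMCUb 2 it was 2.52. Myl4 and Sln turned in sign at the same libraries. Dkk3 turned in T2D empty vector against control without T2D empty vector 2 (-0.49) or without control 2 (-0.26), and in T2D dnMCUb against T2D empty vector without T2D dnMCUb 1 (-0.69) or without T2D empty vector 1 (-0.24). Of the 15 differences (5 genes in 3 comparisons), 12 changed sign in this way, and the 3 that did not were those of Bmp10.

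**Figure D2:**
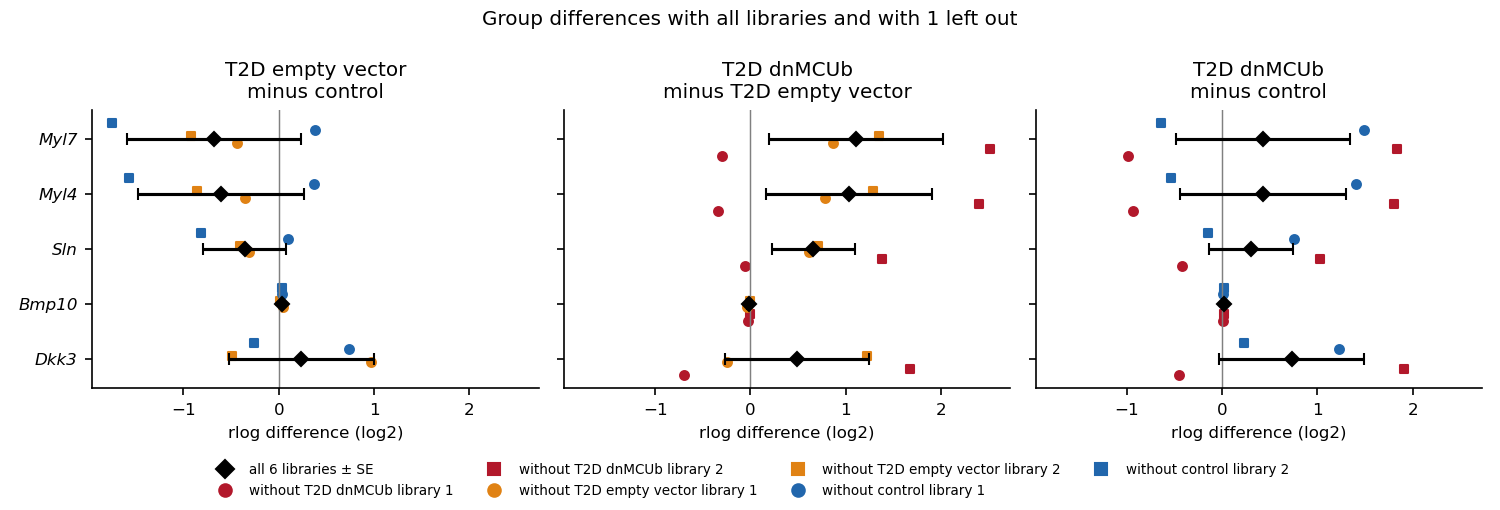
Differences in rlog (horizontal axes, 1 panel per comparison) of each gene with all 6 libraries and with each library left out in turn, against a line at 0. The values of Myl7, Myl4, Sln and Dkk3 lie on both sides of 0 in every panel, and those of Bmp10 stay close to 0.

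Log2 fold changes in the authors' deposited table are on another scale than rlog differences. For T2D empty vector over control the authors' deposited table has -2.51 for Myl7, -2.12 for Myl4, -2.84 for Sln, 2.79 for Bmp10 and 0.74 for Dkk3. The rlog differences above were 0.27, 0.28, 0.13, 0.012 and 0.33 of those folds, and among the genes the authors' table calls in that comparison the median of this ratio was 0.577. For T2D dnMCUb over T2D empty vector the authors' deposited table has 3.60, 3.29, 4.00, -0.95 and 1.37 for the same genes, and for T2D dnMCUb over control 1.08, 1.16, 1.15, 1.83 and 2.10. In the authors' deposited table the adjusted p of all 5 genes was 0.9997 or more in each comparison, while 0.542%, 0.0611% and 0.794% of the genes tested were under 0.05 there. All 3 comparisons share groups, so their folds are not separate evidence.

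Averaged over the 5 genes after each was centred on its mean, the atrial level of a library was 1.28 and -0.59 in T2D dnMCUb hearts, -0.57 and -0.05 in T2D empty vector hearts, and 0.56 and -0.63 in control hearts. This level is a mean over the panel, and how much atrial tissue a library held was not measured. T2D dnMCUb 1 and control 1 were the libraries above 0. The group means were 0.35 ± 1.33 in T2D dnMCUb hearts, -0.31 ± 0.37 in T2D empty vector hearts and -0.04 ± 0.84 in control hearts (SD, n = 2 each), and the pooled standard deviation within groups was 0.932, larger than any difference between the group means. Over Myl7, Myl4 and Sln alone the level was 1.61 and -0.73, -0.67 and -0.31, and 0.88 and -0.77 in the same libraries. Leaving out any of the 5 genes, or taking their median, moved no library by more than that standard deviation. That is a loose limit, as it comes from the same values. T2D empty vector 2 moved from -0.05 to 0.025 without Myl7, to 0.0094 without Myl4 and to 0.0085 without Sln, and so to just above 0.

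The other genes known to be higher in atria than in ventricles gave a fainter and less uniform picture. Of a list of 22, 19 passed the minimum, and 0 were called in each comparison at an adjusted p of 0.05 by limma or in the authors' deposited table. At an unadjusted limma p under 0.05 there were 1 (Nppa), 3 (Nppa, Stard10 and Sbk3) and 1 (Kcnk3) in the order of comparisons above. Over all 13094 genes tested those counts were 803, 739 and 1497. T2D dnMCUb 1 was the highest library for 10 of the 19, against 22.6% of all genes tested, and control 1 was next for 5 of those 10. In T2D empty vector against control 3 of the 19 had a higher mean and 16 a lower one, where 6781 of all 13094 genes tested were lower. The median difference of the 19 was -0.075, against -0.0025 over all genes tested. Their median was 0.050 in T2D dnMCUb against T2D empty vector and 0.017 in T2D dnMCUb against control, against -0.00051 and -0.0023 over all genes. The lower means in T2D empty vector hearts were not particular to atrial genes. Of 13 genes of all working myocytes 12 were lower there (median -0.088), as were all 12 genes of a ventricular list (median -0.119).

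Mybphl, a myosin-binding protein gene of atrium and conduction system, was the other atrial gene nearest in shape to Myl7, Myl4 and Sln. It had 6.20 and 5.37 rlog in T2D dnMCUb hearts, 5.37 and 5.45 in T2D empty vector hearts, and 5.85 and 5.36 in control hearts. By root mean square difference of centred rlog, Itga8 was nearer to the mean profile of Myl7, Myl4 and Sln (0.588) than Mybphl was (0.6005). With each gene on a scale between its lowest and highest library, Mybphl was the nearest to their mean shape. This was among 8726 genes whose values spanned at least 0.1, and control 1 was at 0.58 of the Mybphl range. That scaled measure was chosen after the data had been seen. Stard10, a lipid transfer protein gene, ranked 74 by that measure, with 8.91 and 8.68 in T2D dnMCUb hearts, 8.57 and 8.53 in T2D empty vector hearts, and 8.86 and 8.61 in control hearts. Nearer in shape were Cacna1d (rank 24), a calcium channel gene of atrium and sinoatrial node, and Gja5 (rank 26). Gja5 is the connexin 40 gene of atrium and conduction system. Both spans were small: 0.1085 for Cacna1d, just over the 0.1 asked for ranking, and 7.74 to 8.06 for Gja5. Those last 2 were singled out after their values had been seen. The 18 genes of the list that could be ranked spread from 1 to 8487 with a median of 1953, and Angpt1 (5217), Kcnk3 (6523), Kcna5 (7562) and Smyd2 (8487) were the farthest.

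Nppa, which encodes the atrial natriuretic peptide, did not share the order. It had 10.89 and 10.04 rlog in T2D dnMCUb hearts, 10.01 and 9.63 in T2D empty vector hearts, and 10.52 and 11.01 in control hearts. Control 2, the lowest library for Myl7, Myl4 and Sln, was the highest for Nppa, which ranked 2028 of 8726 in likeness of shape. Both control libraries were above both T2D empty vector libraries, where 42.4% of all genes tested had groups that did not overlap. The authors' deposited table gives Nppa a log2 fold of -1.57 with an adjusted p of 0.212. Nppa is also made by stressed ventricular myocytes, and its ventricular share was not measured here. Angpt1, a vascular growth factor gene, ranged from 10.41 to 10.80 with its highest value in T2D dnMCUb 2, and Pam, the peptide amidating enzyme abundant in atrial granules, from 13.59 to 13.96 with its highest in T2D dnMCUb 1. Myl1, an essential light chain gene of skeletal muscle and embryonic heart, ranged from 7.97 to 8.33, also highest in T2D dnMCUb 1.

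Most ventricular genes were lowest in T2D dnMCUb 1, and their values in control 1 were not low. All 12 on the list passed the minimum and limma called 0 in each comparison at an adjusted p of 0.05. At an unadjusted p under 0.05 there were 2, 0 and 4, against 803, 739 and 1497 of all 13094 genes tested. T2D dnMCUb 1 was the lowest library for 9 of the 12, against 27.8% of all genes tested. Myl2, the ventricular partner of Myl7, had 16.96 and 17.23 rlog in T2D dnMCUb hearts, 17.13 and 17.06 in T2D empty vector hearts, and 17.36 and 17.26 in control hearts. The authors' deposited table calls Myl2, alone of the 12, in T2D empty vector over control, with a log2 fold of -0.30 and an adjusted p of 0.0342. It calls 0.542% of all genes tested in that comparison. All 12 had a lower mean in T2D empty vector hearts than in control hearts, with a median difference of -0.119, and the medians were -0.038 in T2D dnMCUb against T2D empty vector and -0.178 in T2D dnMCUb against control. Myl3, the ventricular partner of Myl4, had 15.69 and 15.88 in T2D dnMCUb hearts, 15.90 and 15.82 in T2D empty vector hearts, and 15.99 and 16.03 in control hearts. Myh7, the beta myosin heavy chain, had the widest range of the 12 and another order, with 12.06 and 12.06 in T2D dnMCUb hearts, 11.46 and 12.25 in T2D empty vector hearts, and 12.09 and 12.02 in control hearts. Its gap of 0.79 between the T2D empty vector libraries was larger than that of Myl7 or Myl4 in that group. Kcnd2 and Kcnip2, subunits of the transient outward potassium channel, ranged from 9.44 to 9.88 and from 9.31 to 9.69, and the transcription factor gene Irx3 from 8.39 to 8.69, each lowest in T2D dnMCUb 1. Control 1 was the highest library for Myl2 and second highest for Myl3 while it was second highest for the atrial light chains.

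Genes of all working myocytes were also lowest in T2D dnMCUb 1, in 13 of 13 of a list that includes Myh6, Ttn and Ryr2. As a mean of centred values that list stood at -0.20 in T2D dnMCUb 1 and 0.12 in control 1, and the ventricular list at -0.12 and 0.11. The 4 atrial markers tested stood at 1.60 and 0.71 in those libraries, and the 19 other atrial genes at 0.11 and 0.05. Limma called 0 of the 13 in each comparison. At an unadjusted p under 0.05 there were 1, 2 and 4, against 803, 739 and 1497 of all 13094 genes tested. The authors' deposited table calls Mybpc3 and Tnnc1, genes of the thick and thin filaments, as lower than in control hearts. Their log2 folds there are -0.46 and -0.48 for T2D dnMCUb and -0.31 and -0.30 for T2D empty vector. That table calls 0.794% and 0.542% of all genes tested in those comparisons.

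The light chain genes are paralogs, and short reads could be shared between them only where their sequences match. The longest protein-coding transcripts of Myl7 and Myl2 were 63.4% identical over their best alignment, with a longest shared run of 16 bases, and those of Myl4 and Myl3 71.6%, with a run of 29. Myl7 and Myl4 themselves were 54.1% identical with a shared run of 10. Myl4 is overlapped on the other strand by 4 annotated genes, among them the antisense RNA Gm11665. The libraries were stranded, but the strand setting of the counting is not given in the sources used here. Whether reads from these genes were counted for Myl4 is therefore not known. Among the 10 members of the myosin light chain family that passed the minimum, limma called 0 in each comparison at an adjusted p of 0.05. At an unadjusted p under 0.05 there were 1, 1 and 0, against 803, 739 and 1497 of all 13094 genes tested. The authors' deposited table calls Myl2, as above, and Myl12a, a light chain gene of nonmuscle myosin. The log2 fold of Myl12a is 0.29 in T2D empty vector over control (adjusted p = 0.0440), where 0.542% of all genes tested are called. Besides Myl7 and Myl4, the widest spread of the 10 was in Myl9, the regulatory light chain of smooth muscle, which was picked out by that spread. It had 10.42 and 9.57 rlog in T2D dnMCUb hearts, 9.50 and 9.93 in T2D empty vector hearts, and 9.84 and 9.75 in control hearts.

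Sarcolipin's target in the heart and its relative had another library order than Sln. Atp2a2, the cardiac calcium pump, had 17.31 and 17.50 rlog in T2D dnMCUb hearts, 17.56 and 17.52 in T2D empty vector hearts, and 17.57 and 17.51 in control hearts. Pln, the ventricular inhibitor of the same pump, had 17.06 and 17.30 in T2D dnMCUb hearts, 17.27 and 17.18 in T2D empty vector hearts, and 17.34 and 17.23 in control hearts. T2D dnMCUb 1 was lowest for both and highest for Sln. Atp2a3, a calcium pump of nonmuscle cells, was highest in T2D dnMCUb 1 as Sln was, with 8.74 and 8.54 in T2D dnMCUb hearts, 8.53 and 8.61 in T2D empty vector hearts, and 8.48 and 8.50 in control hearts, and T2D empty vector 2 was next. Of the 3 pump genes and regulators tested, limma called 0 in any comparison, with 0 at an unadjusted p under 0.05, and Atp2a1 and Mrln were under the minimum.

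Dkk3 shared its highest libraries with stromal genes. Of the Dickkopf family and Wnt inhibitors, Sfrp1, Sfrp2, Wif1 and Axin2 passed the minimum beside Dkk3, and all 4 were highest in T2D dnMCUb 1 and next highest in T2D empty vector 2, as Dkk3 was. Wif1, a secreted Wnt inhibitor, had 7.98 and 7.29 rlog in T2D dnMCUb hearts, 7.09 and 7.62 in T2D empty vector hearts, and 7.51 and 6.99 in control hearts. All 8 genes of a fibroblast list had that top pair too, and 5 of 6 smooth muscle genes, against the 8.92% of all genes given above. As means of centred values the fibroblast list stood at 0.39 and -0.12 in T2D dnMCUb hearts, -0.18 and 0.15 in T2D empty vector hearts, and -0.08 and -0.17 in control hearts, and the smooth muscle list at 0.46 and -0.19, -0.25 and 0.10, and -0.05 and -0.08. Whether fibroblast or smooth muscle RNA had a part in the Dkk3 values was not tested.

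Further lists also differed between libraries. The red cell list was highest in T2D dnMCUb 2, with means of 0.21 and 0.69 in T2D dnMCUb hearts, -0.45 and -0.41 in T2D empty vector hearts, and 0.38 and -0.42 in control hearts. The sinoatrial and conduction list stood at 0.13 and -0.04, -0.09 and 0.07, and 0.02 and -0.09 in the same libraries, with 7 of its 12 genes passing the minimum. The endocardial list stood at 0.25 and -0.08, -0.07 and 0.07, and -0.08 and -0.09. All 9 macrophage genes were highest in T2D dnMCUb 1, and that list stood at 0.19 and 0.03, -0.01 and -0.07, and -0.06 and -0.08. The valve and neural list was highest there for 4 of its 5 tested genes and stood at 0.35 and -0.11, -0.14 and 0.09, and -0.03 and -0.17. The part of these cell types in the marker values was not tested. A further list held genes that receive or transmit BMP10 and the related ligand genes Gdf2, Bmp4 and Bmp2. Of its 15 genes, 13 passed the minimum and limma called 0 in each comparison. At an unadjusted p under 0.05 there were 0, 1 and 3, against 803, 739 and 1497 of all 13094 genes tested. Acvrl1, the ALK1 gene, had 9.54 and 9.56 rlog in T2D dnMCUb hearts, 9.38 and 9.37 in T2D empty vector hearts, and 9.36 and 9.40 in control hearts.

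**Figure D3:**
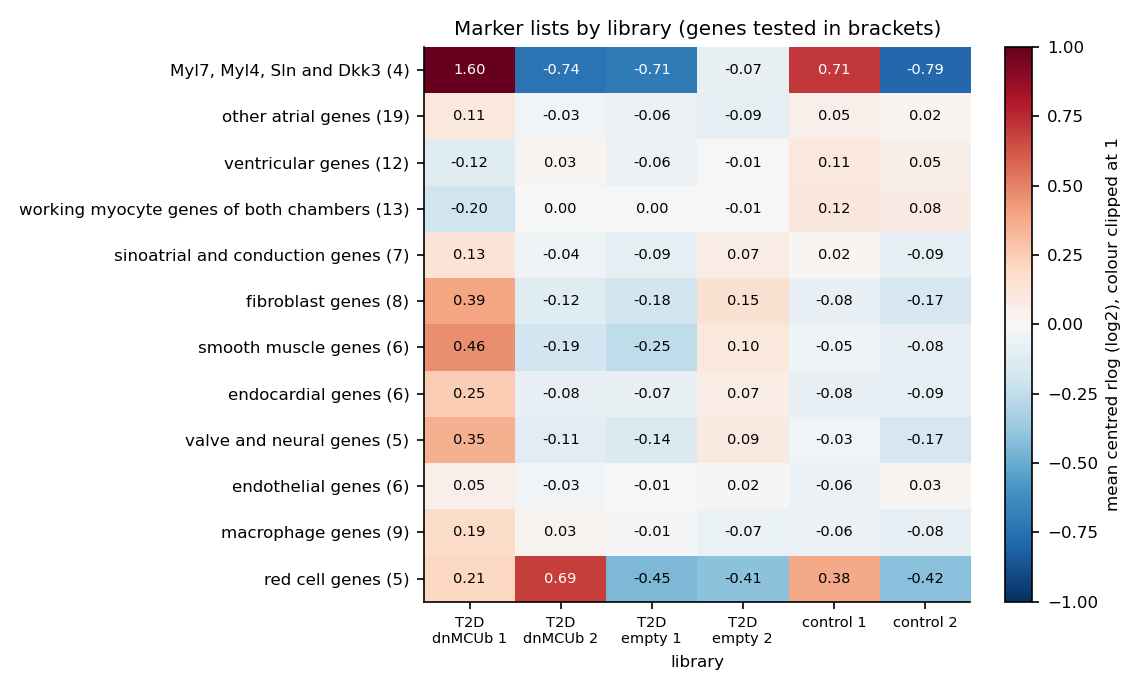
Mean centred rlog of each marker list (rows, with the number of genes passing the minimum) in each library (columns, T2D dnMCUb, T2D empty vector and control from left to right), with the value printed in each cell and colours that stop at 1. Myl7, Myl4, Sln and Dkk3 range from -0.79 to 1.60, while the ventricular list stays between -0.12 and 0.11.

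The genes whose values lay nearest to the mean profile of the 5 markers were sought among the 13090 other genes tested, by the root mean square difference of centred rlog over the 6 libraries. In order they were Itga8 (0.384), Mybphl (0.403), Postn (0.412), Nov (0.412), Cytl1 (0.416), Thbs1 (0.426), Scara3 (0.432), Wif1 (0.434), Tagln (0.438) and Mgp (0.445), where a gene with no change at all would be at 0.712. All 10 were highest in T2D dnMCUb 1, but 9 of them had T2D empty vector 2 next, like Dkk3, and only Mybphl had control 1 next. Itga8, an integrin gene, had 9.99 and 8.38 rlog in T2D dnMCUb hearts, 8.34 and 8.98 in T2D empty vector hearts, and 8.52 and 8.44 in control hearts. This measure weighs the size of a change as well as its order, so it favours genes that span a wide range. When every profile was divided by its own range instead, 1 of the 10, Mybphl, was still among the nearest 10, a setting chosen after the data had been seen.

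Distances were also taken within the panel. On the scale from lowest to highest library, Myl7 and Myl4 were 0.014 apart, Myl7 and Sln 0.054, Myl4 and Sln 0.052, Myl7 and Dkk3 0.208, and Myl7 and Bmp10 0.502. Myl7, Myl4 and Sln thus ordered the libraries alike, Dkk3 shared their highest library, and Bmp10 was farthest from them. Bmp10 spanned only 0.052, under the 0.1 asked of genes ranked by shape above, so its distance on this scale says little.

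**Figure D4:**
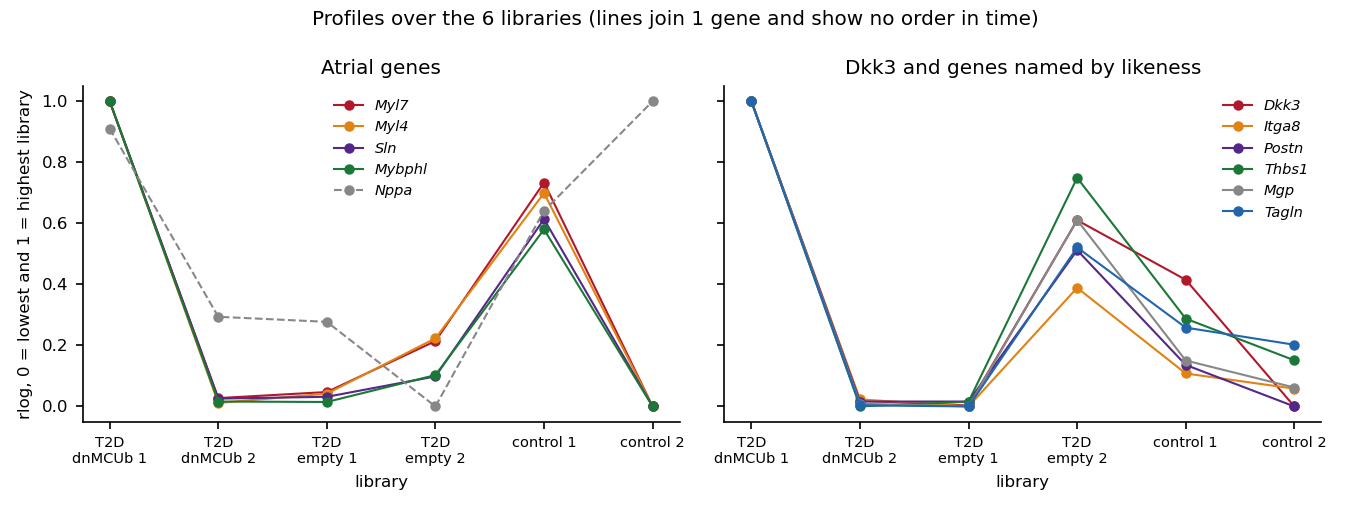
Position of each library between a gene's lowest (0) and highest (1) rlog (vertical axis) for Myl7, Myl4, Sln and Dkk3 and for genes set beside them, with libraries in the order T2D dnMCUb, T2D empty vector and control. Myl7, Myl4, Sln and Mybphl have control 1 at 0.58 to 0.73, Dkk3 has T2D empty vector 2 at 0.61, and Nppa is highest in control 2.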

How the data were processed

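Per the labels' protocols, stranded Illumina libraries were made from heart RNA depleted of ribosomal RNA. Tools listed in the submitters' processing notes are STAR 2.5.2a, DESeq2 and bcl2fastq 2.20.0.422, and the builds listed are mm10, GRCm38 and hg38, with no roles. How reads were counted, with which strand setting and filters, is not given in the sources used here. The authors deposited rlog values, a log2 scale, for 54352 genes in 6 libraries, with log2 fold changes, p-values and adjusted p-values of 3 comparisons, per the file headers. There were no read counts to work from, so sequencing depth is unknown and intervals that need it are not given. Of the rows, 22778 are listed at 0 in every library.

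The 13094 genes whose mean rlog was 5 or more were fitted in limma 3.58.1 (R 4.3.3) with a term for group and a mean-variance trend, on all 6 libraries (3 residual degrees of freedom), with Benjamini-Hochberg adjustment at 0.05. Bmp10 is under that minimum and its values come from the same fit with no minimum. An exact permutation test of 2 libraries against 2 cannot go below 0.333 and was not used. The fit was tested on simulated data. Distances, levels and ranks were computed in Python 3.11.15. The text names the 5 markers, up to 6 genes with the widest range of the other atrial and ventricular lists, and the 10 genes nearest in profile. Genes of other lists are named for their role, for an authors' call, or after their values were seen. Further genes of the atrial list are named for an unadjusted p under 0.05, for their rank in shape, or after their values were seen. Members and lists were chosen with earlier results of these data known. Coordinates are those of GENCODE M21, and promoters those of RefSeq for GRCm38.p6. Alternatives were other minima, 2 groups alone, no trend, library weights, libraries centred on their median, quantile normalization, a replicate block, and leaving out libraries.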

Additional observations from a re-analysis of the deposited data

How the results depend on the processing

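With 2 libraries a group, no read counts and no stated chambers, these data limit what can be said to values per library. Leaving out 1 library at a time gave these ranges of the rlog difference. In T2D empty vector against control they were -1.74 to 0.38 for Myl7, -1.57 to 0.37 for Myl4, -0.81 to 0.10 for Sln and -0.49 to 0.97 for Dkk3. In T2D dnMCUb against T2D empty vector they were -0.30 to 2.52, -0.34 to 2.40, -0.06 to 1.38 and -0.69 to 1.67 for the same genes, and in T2D dnMCUb against control -0.98 to 1.83, -0.94 to 1.80, -0.42 to 1.02 and -0.45 to 1.91. The mean of the 5 genes, -0.27, 0.65 and 0.38 in the same order of comparisons, ranged over -0.87 to 0.32, -0.28 to 1.59 and -0.56 to 1.32. Without T2D dnMCUb 1 and control 1 together, a choice made after seeing the data, the first comparison gave 0.38 for Myl7, 0.37 for Myl4, 0.096 for Sln and 0.74 for Dkk3, the second -0.30, -0.34, -0.058 and -0.69, the third 0.079, 0.032, 0.038 and 0.046, and the mean of the 5 genes in the second was -0.28. The 8 other settings gave 0 changes of sign. Only centring libraries on their median and quantile normalization could move a difference, because the rest left the group means as they were. In these 8 settings 0 differences of the 5 genes had a limma adjusted p under 0.05. The stricter minimum of 8 gives no value for Sln or Bmp10.

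The count of genes limma called over the whole table was unstable. In T2D empty vector against control (0) it was 30 with only those groups in the fit, 5 with library weights, 17 without both high libraries, and 0 to 30 without 1 library. In T2D dnMCUb against T2D empty vector (0) it was 26 without both high libraries and 0 to 14 without 1. In T2D dnMCUb against control (9) it was 0 with no minimum, with the stricter minimum, with 2 groups, with no trend, with quantile normalization and with the replicate block, 16 with weights, 58 without both high libraries and 0 to 743 without 1. The cause was not tested. Replicate numbers did not pair the libraries: the correlation over genes of the library 1 minus library 2 difference was -0.511 between T2D dnMCUb and T2D empty vector, -0.0133 between T2D dnMCUb and control and -0.0876 between T2D empty vector and control. With the replicate block limma called 0, 0 and 0 genes, with an adjusted p of 0.986 for Myl7 in T2D dnMCUb against T2D empty vector. The differences of the 5 genes were the same, because this block cannot change differences between group means. Crossing the numbers, added after seeing the data, gave 5, 0 and 81 calls. Of the 10 genes nearest in profile, 6 were shared under the stricter minimum, 6 with the profile of Dkk3 alone, and 1, 1 and 0 when profiles of the 5 genes, of Myl7, Myl4 and Sln, and of Dkk3 were divided by their range.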
